A study of Drosophila melanogaster with 8 samples.

Results

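The signal recognition and translocation machinery of the endoplasmic reticulum was followed in RNA from exosomes of Drosophila S2 cells and in RNA from the cells. The set holds 10 genes of the 14012 in the deposited table. They were taken by symbol, after transcripts were summed to genes, and all 10 were found: Sec61alpha, Sec61beta, SsRbeta, TRAM, Srp72, Srp68, Srp54k, Srp19, Gtp-bp (now SrpRalpha) and SrpRbeta. Srp54k (CG4659) was kept apart from Srp54 (CG4602), a splicing factor gene of nearly the same symbol. Exosomes are vesicles that cells shed into the medium, and S2 is an embryonic fly line that resembles macrophage-like blood cells. The study has 4 exosome libraries and 4 cell libraries of polyadenylated RNA, numbered 1 to 4 in each group, with no treatment or genotype besides the line itself. The question was which RNAs the exosomes carry. No label ties the libraries to independent cultures, and the p-values below reflect library-to-library spread that may be technical. In such bulk RNA, fewer vesicles or cells that carry an mRNA and less of that mRNA in each cannot be told apart. The exosome isolation step is not described in the sources used here.

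Proteins that enter the secretory pathway carry a hydrophobic signal sequence. As the signal leaves the ribosome it is bound by the signal recognition particle, which docks on a receptor at the endoplasmic reticulum and hands the ribosome to the Sec61 channel. The growing chain then passes into the lumen or the membrane, helped by partners such as the translocon-associated protein complex and TRAM. The mRNAs described here encode this machinery itself.

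Values are FPKM, fragments normalised to transcript length and library size by the authors. The libraries were on unequal scales, with a summed FPKM from 91304 in exosome replicate 3 to 1140885 in cell replicate 2. A gene is therefore also given as a percentile, its rank within one library from 0 (lowest) to 100 (highest), which does not depend on that scale. Estimated from the steps between low values, the gene values rested on about 100000 fragments in exosome replicate 2 and on 1949000 to 6450000 in the 5 other libraries in which a step was found. No step was found for the replicates numbered 1. Of 11 plasmatocyte (blood cell) markers, 8 to 11 were above an FPKM of 1 in each cell library and none was at 0, while 5 to 9 passed that level in each exosome library. Markers of neurons, muscle and germ line summed to 1.001 to 21.9 FPKM in the cells, against 36.5 to 5560 for the plasmatocyte markers.

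Exosome replicate 1 listed no expressed gene on chromosome arm 3R, on chromosomes 4 and X or in the mitochondrial genome. All 5295 genes of the table assigned there were at exactly 0 in this library, among them 2270 of the genes tested below. Of the tested genes on arms 2L, 2R and 3L, 3.81% were at 0 in the same library. In the other 7 libraries the share at 0 on the unlisted chromosomes lay between 0.132% and 45.5%, and on 2L, 2R and 3L between 0.849% and 51.0%. Why these chromosomes are at 0 was not tested. A 0 there is not read as absence of the mRNA. It touches TRAM and Gtp-bp on X and Srp72 on 3R, whose results are given with and without this library. The other 7 genes lie on 2L, 2R and 3L, and their percentiles were taken among the 3414 tested genes of those arms. Ranked among those genes, exosome replicate 1 had Spearman correlations of 0.432 to 0.767 with the other libraries, across genes, which are not independent replicates. Over all tested genes the correlations were 0.126 to 0.299.

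**Figure D1:**
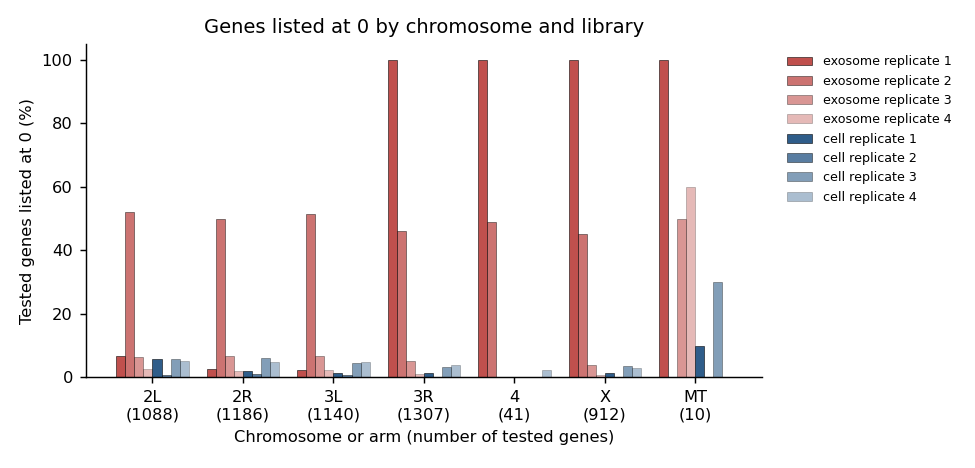
Share of tested genes listed at 0 (y axis, percent) on each chromosome or arm (x axis, with the number of tested genes), one bar per library, exosomes in red and cells in blue. Exosome replicate 1 is at 100% on 3R, 4, X and the mitochondrial genome (MT) and at 2.37% to 6.71% on the other arms, while exosome replicate 2 is at 45.2% to 52.0% on every nuclear chromosome or arm.

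Exosome replicate 2 limits the set in another way. A single fragment there was worth 5.15 FPKM for Srp72 and 22.2 FPKM for the short Srp19, and 6 of the 10 genes were at 0, where 48.9% of all tested genes were. Exosome replicate 1 had 3 of the 10 genes at 0, all on its unlisted chromosomes, and 42.3% of all tested genes. In exosome replicate 2 the 9 genes with 1 transcript rested on 0 to 11.2 estimated fragments. In exosome replicates 3 and 4 the ranges were 2.04 to 57.0 and 24.0 to 127 fragments, and in cell replicates 2 to 4 they went from 6.997 to 311. Such numbers cover counting error only.

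Sec61beta, a small single-pass subunit of the Sec61 channel, was the most abundant of the 10 genes in all 4 exosome libraries and in 3 of 4 cell libraries. Its FPKM was 531, 191, 36.4 and 118 in exosome replicates 1 to 4, and in the cell replicates of the same numbers 362, 207, 35.0 and 16.7. The exosome values lay within or above the range of the cells. Its percentile was 96.5, 97.0, 96.5 and 95.5 in exosomes, against 95.8, 92.4, 94.1 and 95.0 in the cells, or 96.4 ± 0.615 (SD, n = 4) against 94.3 ± 1.48 (SD, n = 4). The ranges overlapped by 1 library, cell replicate 1, which was above exosome replicate 4 alone (exact permutation test, two-sided, p = 0.0571, adjusted over the 3414 genes ranked p = 0.725). Ranked among all tested genes the p was again 0.0571. Leaving out any 1 library, ranked among all tested genes, the difference lay between 2.12 and 3.57 percentile points, highest without cell replicate 1, the library that overlaps.

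In the limma fit across all 5868 genes tested (FPKM above 1 in 4 or more libraries), the log2 difference of Sec61beta, exosome less cell, was 0.81 (SE 1.79; limma adjusted p = 0.879). Differences are on the log2(FPKM + 1) scale, which understates the change of low genes. The median difference of all tested genes was -1.01, below called the shift, so Sec61beta lay 1.82 above it. As deposited, differences at least as high were found for 2.45% of tested genes. That shift and that share include the genes at 0 on the unlisted chromosomes of exosome replicate 1. Genes of 2L, 2R and 3L had a median of -0.65, and Sec61beta is on 2R. With exosome replicate 1 dropped where it lists no gene, the median of all tested genes was -0.77 and Sec61beta lay 1.58 above it.

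Sec61alpha, the large subunit that forms the channel's pore, was listed at 73.4, 27.1, 16.1 and 8.12 FPKM in exosomes, against 552, 86.6, 15.3 and 7.22 in the cells. The groups overlapped throughout, and exosome replicates 3 and 4 were close to cell replicates 3 and 4. Its percentiles were 85.6, 84.5, 91.5 and 61.0 in exosomes, against 97.2, 83.1, 85.6 and 87.9 in the cells (exact permutation test, two-sided, p = 0.429). Its log2 difference of -1.08 (SE 1.62; limma adjusted p = 0.823) was 0.07 below the shift, and without cell replicate 1 it was 0.07.

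Set against Sec61beta in the same library, which removes the library scale, Sec61alpha was at 0.138, 0.142, 0.442 and 0.0686 in exosomes, against 1.53, 0.417, 0.438 and 0.433 in the cells. Cell replicates 2 to 4 held nearly one ratio. Exosome replicates 1, 2 and 4 lay below all cells and exosome replicate 3 lay with the cells. In exosome replicate 2 the ratio stands on about 4.91 fragments of Sec61alpha and 11.2 of Sec61beta. These ratios were chosen after the values were seen and are given without a test.

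**Figure D2:**
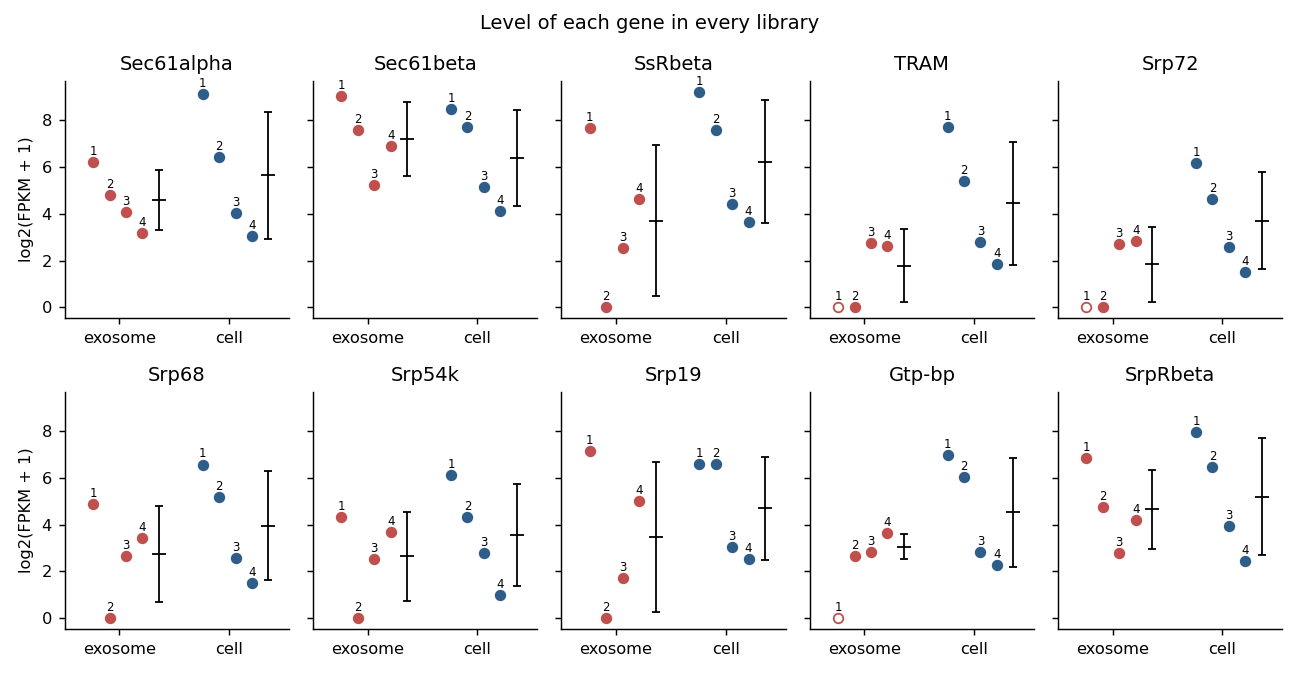
Level of the 10 genes as log2(FPKM + 1) (y axis) in exosome libraries (red) and cell libraries (blue), with the replicate number above each point and the mean ± SD in black. Open circles are exosome replicate 1 for genes on chromosomes that it does not list, left out of the mean; the groups overlap in every panel.

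The channel's partners had the lowest log2 differences of the set with all 8 libraries; without exosome replicate 2 SsRbeta (-1.28) lay above Gtp-bp (-2.38) and Srp72 (-1.86). SsRbeta encodes the beta subunit of the translocon-associated protein complex, which sits beside the channel. Its FPKM was 201, 0, 4.86 and 23.9 in exosomes, against 595, 194, 20.7 and 11.7 in the cells. Its place in the cells was steady, at percentiles of 97.4, 92.0, 90.1 and 92.9, while the exosome libraries spread over 93.2, 25.5, 68.2 and 82.5. Exosome replicates 2, 3 and 4 lay below every cell library and replicate 1 did not (exact permutation test, two-sided, p = 0.114 with all 8 libraries). Ranked among all tested genes, the difference was -24.9 percentile points with all libraries, -34.9 without exosome replicate 1 and -10.5 without exosome replicate 2. The 0 of exosome replicate 2 allows up to 3 fragments, or 40.2 FPKM, whereas exosome replicate 3 rested on about 7.11 fragments and cell replicate 3 on 34.3. The log2 difference of SsRbeta was -2.52 (SE 1.60; limma adjusted p = 0.708), or 1.52 below the shift. It was -3.84 if exosome replicate 1 was left out, -1.28 if exosome replicate 2 was, and -1.52 if cell replicate 1 was.

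TRAM encodes a membrane protein that lies next to chains entering the channel. With its 3 transcripts summed it had 0, 0, 5.74 and 5.16 FPKM in exosomes, the first on an unlisted chromosome, against 208, 41.8, 5.92 and 2.67 in cells. Exosome replicates 3 and 4 lay between cell replicates 3 and 4 in FPKM. By percentile, exosome replicates 2, 3 and 4 were at 24.4, 74.3 and 48.5 and the cells at 93.1, 69.9, 67.1 and 70.2 (exact permutation test, two-sided, p = 0.171). The log2 difference was -3.10 (SE 1.35; limma unadjusted p = 0.0216, adjusted p = 0.708) as deposited. It was -2.66 (SE 1.44; limma unadjusted p = 0.0658, adjusted p = 0.991) with exosome replicate 1 dropped from this gene's fit. TRAM was the only one of the 10 genes with an unadjusted p under 0.05, a level that 4.62% of all tested genes reached in this direction and 0.0852% in the other. As deposited, 1.18% of tested genes had a log2 difference as low as that of TRAM.

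The 4 genes of the set that encode signal recognition particle subunits were at 0 in exosome replicate 2, and their groups overlapped. Srp68 and Srp72 form a dimer on the particle's RNA. Srp72 was listed at 0, 0, 5.53 and 6.19 FPKM in exosomes, the first on an unlisted chromosome, against 71.0, 23.5, 4.92 and 1.83 in cells. In FPKM exosome replicates 3 and 4 lay above cell replicates 3 and 4, on unequal library scales. Its log2 difference was -2.32 (SE 1.29; limma adjusted p = 0.708) as deposited and -1.86 (SE 1.41; limma adjusted p = 0.991) with exosome replicate 1 dropped. Without that library its percentiles were 24.4, 73.1 and 53.7 against 80.0, 55.0, 61.3 and 59.2 (exact permutation test, two-sided, p = 0.343). By this measure exosome replicate 4 lay below cell replicates 3 and 4.

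Srp68 had 28.5, 0, 5.28 and 9.70 FPKM across exosome replicates 1 to 4, against 93.9, 34.7, 4.94 and 1.84 in the cells, with a log2 difference of -1.21 (SE 1.41; limma adjusted p = 0.781). Apart from the 0 of exosome replicate 2, which allows up to 15.6 FPKM, its exosome percentiles of 72.6, 70.4 and 65.0 lay inside the cell range of 60.5 to 83.8. Srp54k encodes the GTPase subunit that binds the signal sequence. It had FPKM values of 19.2, 0, 4.78 and 11.8 in exosomes, against 68.5, 19.3, 5.88 and 1.01 in the cells. Its log2 difference of -0.93 (SE 1.38; limma adjusted p = 0.821) was 0.08 above the shift as deposited. Against the shift of -0.77, with exosome replicate 1 dropped where it lists no gene, Srp54k lay 0.16 below. Its percentiles in exosome replicates 1, 3 and 4 were 65.8, 67.8 and 69.6, against 40.03 to 78.7 in cells, the widest cell range of the 10 genes.

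Srp19, which helps to assemble the particle on its RNA, had 139.9, 0, 2.31 and 31.2 FPKM across exosome replicates 1 to 4, against 94.9, 94.1, 7.34 and 4.82 in the cells. Its percentile was 90.9, 25.5, 44.3 and 85.7 in exosomes, against 84.0, 84.4, 71.3 and 82.6 in the cells. Thus 2 exosome libraries lay above all cells and 2 below all cells (exact permutation test, two-sided, p = 0.429). The low values are thinly based, since the 0 of exosome replicate 2 allows up to 66.5 FPKM and the value of exosome replicate 3 rests on about 2.04 fragments. The log2 difference was -1.22 (SE 1.50; limma adjusted p = 0.786). It was -0.063 without exosome replicate 2 and -2.44 without exosome replicate 1.

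Of the receptor genes, Gtp-bp (SrpRalpha) encodes the GTPase subunit that meets the particle. It had 0, 5.34, 6.01 and 11.6 FPKM in exosomes, the first on an unlisted chromosome, against 126, 64.9, 6.04 and 3.90 in cells. In exosome replicate 2 this is about 0.987 fragments, so a single fragment. Its percentile was 58.7, 75.5 and 68.8 in exosome replicates 2 to 4, against 88.9, 78.2, 67.7 and 78.8 in the cells, with 2 exosome libraries above the lowest cell library (exact permutation test, two-sided, p = 0.171). With exosome replicate 1 as deposited the permutation p was 0.0857. The log2 difference was -2.25 (SE 1.42; limma adjusted p = 0.708) as deposited and -1.49 (SE 1.49; limma adjusted p = 0.991) with exosome replicate 1 dropped.

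SrpRbeta encodes the membrane-anchored subunit, a small GTPase. It was above 0 in every library, with 114, 26.0, 5.87 and 17.5 FPKM in exosomes, against 248, 88.2, 14.3 and 4.38 in the cells. Its percentiles of 89.5, 84.0, 73.5 and 77.6 in exosomes overlapped with 94.0, 83.4, 84.2 and 81.1 in cells (exact permutation test, two-sided, p = 0.343). Its log2 difference was -0.55 (SE 1.60; limma adjusted p = 0.913), or 0.45 above the shift.

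**Figure D3:**
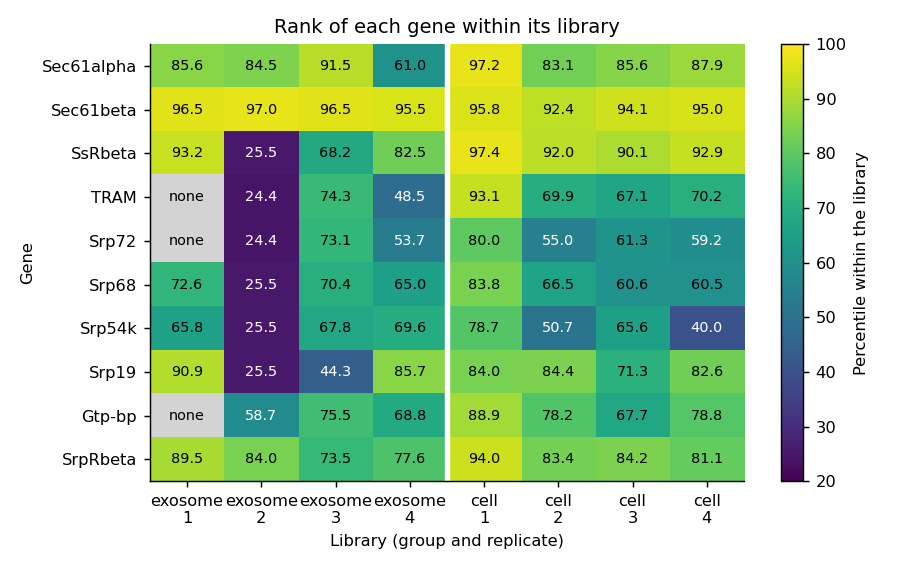
Percentile of the 10 genes (rows) within each library (columns), from 20 (dark) to 100 (yellow), ranked among tested genes of 2L, 2R and 3L, or among all tested genes for TRAM, Srp72 and Gtp-bp, which have no value in exosome replicate 1. A 0 takes the shared rank of all genes at 0, about 24.4 or 25.5; Sec61beta is between 92.4 and 97.0 in every library.

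Across the set, limma called 0 of the 10 genes, as it called 0% of all 5868 tested genes. As deposited, 9 of 10 log2 differences were below 0, against 85.7% of all tested genes, and 7 lay below the shift. In no gene were the FPKM of the groups separated, where 0.75% of all tested genes had every exosome value below every cell value and 0.0341% the reverse. The median difference of the 10 genes was -1.22, or 0.21 below the shift. With exosome replicate 1 dropped where it lists no gene, the shift was -0.77. Then 0 of the 10 genes were called (0% of all), none had an unadjusted limma p under 0.05 (1.79% of all were lower and 0.119% higher at that level), 8 lay below the shift and the median was 0.45 below it. By percentile 6 of the 7 genes on 2L, 2R and 3L and all 3 of the others were on average lower in exosomes, against 47.7% of the 3414 genes and 48.4% of all tested genes. In none did the groups separate, where 2.34% of the 3414 genes and, without exosome replicate 1, 3.32% of all tested genes had every exosome value below every cell value (the reverse held for 2.14% and 3.58%). Ranked as deposited among all tested genes, again none of the 10 separated, against 2.06% lower and 2.51% higher. In that ranking 8 of the 10 were on average lower in exosomes, against 2780 of the 5868 tested genes. Without exosome replicate 2, Srp68 (5.60 points), Srp54k (14.5) and Sec61beta (2.52) were on average higher and the other genes of the set lower. This count has no share of all tested genes beside it, and it keeps the zeros of exosome replicate 1 for TRAM, Srp72 and Gtp-bp. With exosome replicates 1 and 2 both left out, these were at -14.5, -0.50 and -6.67 points. The shares over all genes are not matched for level, and 9 or 10 of the 10 genes stood above the median in each cell library. As a share of all FPKM, the 10 genes together took 0.130%, 0.0750%, 0.102% and 0.0575% in exosome replicates 1 to 4, against 0.332%, 0.0749%, 0.117% and 0.0507% in the cells. The first exosome share lacks the 3 genes on unlisted chromosomes, and its total lacks every gene there. It is therefore not comparable with the other shares. Cell replicate 1 stood highest in this share.

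The SD of the percentile over libraries lay between 1.48 and 17.0 in cells and between 0.615 and 31.8 in exosomes. Mean cell percentiles ran from 94.3 ± 1.48 (SD, n = 4) for Sec61beta, 93.1 ± 3.09 for SsRbeta, 88.5 ± 6.15 for Sec61alpha and 85.7 ± 5.72 for SrpRbeta down to 63.9 ± 11.1 for Srp72 and 58.8 ± 17.0 for Srp54k. Neighbours in this order differed by less than the larger of their SDs. In exosomes Sec61beta led at 96.4 ± 0.615 (SD, n = 4), ahead of SrpRbeta at 81.2 ± 7.01 and Sec61alpha at 80.7 ± 13.5. Gtp-bp followed at 67.7 ± 8.46 (SD, n = 3) and SsRbeta, next to Sec61beta in the cells, at 67.3 ± 29.7 (SD, n = 4), with an SD that spans the means of the remaining genes.

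Relative to Sec61beta, 4 of the other 9 genes were lower in every exosome library with a value than in every cell library. SsRbeta was at 0.379, 0, 0.134 and 0.202 in exosomes, against 1.65, 0.934, 0.592 and 0.702 in the cells. SrpRbeta was at 0.215, 0.136, 0.161 and 0.148 in exosomes, and 0.685, 0.425, 0.408 and 0.263 in cells. In exosome replicate 2 its ratio stands on about 2.03 fragments of SrpRbeta and 11.2 of Sec61beta. In exosome replicate 3 it stands on about 8.97 fragments of SrpRbeta. Of all tested genes on 2L, 2R and 3L, 11% had ratios to Sec61beta lower in every exosome library than in every cell library. TRAM reached at most 0.158 in exosome replicates 2 to 4, against at least 0.160 in cells. Gtp-bp reached at most 0.165, against at least 0.173. In this comparison without exosome replicate 1 the share of all tested genes was 11.4%. The percentile of Sec61beta was itself on average 2.04 points higher in exosomes, so these counts describe the set and Sec61beta together, and no test was made.

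**Figure D4:**
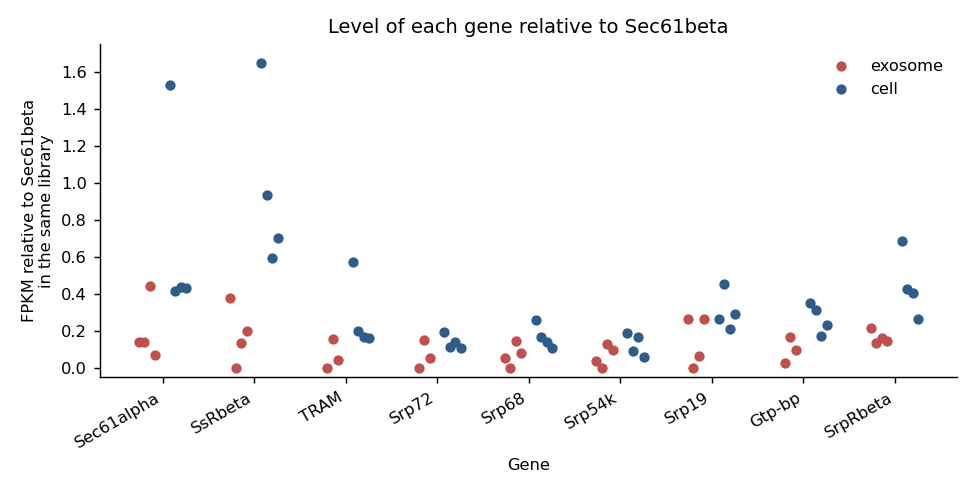
FPKM of 9 genes relative to Sec61beta in the same library (y axis), one point per library, exosomes in red and cells in blue; exosome replicate 1 is left out for TRAM, Srp72 and Gtp-bp. Exosome points lie below all cell points for SsRbeta, TRAM, Gtp-bp and SrpRbeta, for TRAM and Gtp-bp by a small margin.

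Transcript length was looked at as a feature that the choice of genes did not use. The transcripts ran from 653 bases (Srp19) and 792 bases (Sec61beta) to 2149 bases (Srp72) in the Release 6 annotation. Across the 10 genes the Spearman correlation of length with the log2 difference was -0.21, and across 5386 tested genes with a matched transcript it was -0.22. Across the 10 genes it was 0.04 without exosome replicate 1, and across tested genes -0.15. These are descriptions across genes that share libraries.

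A list of 20 further genes of the pathway was also without calls. All 20 were tested, and limma called 0, as deposited and with exosome replicate 1 dropped where it lists no gene. As deposited 14 lay below the shift, with a median 0.55 below it, and with the library dropped 13 did, with a median 0.15 below it. In the rest of the channel and its partners, 7 genes, the highest log2 difference as deposited was that of CG8860, a paralog of Sec61gamma with which it could share reads, and the lowest that of l(1)G0320, the alpha subunit of the translocon-associated protein complex. CG8860 had FPKM values of 2241, 198, 66.0 and 226 in exosomes, against 954, 140.5, 56.6 and 10.3 in the cells, a log2 difference of 1.57 (SE 1.84; limma adjusted p = 0.782). With l(1)G0320 at 50.3, 14.1 and 42.4 FPKM in exosome replicates 2 to 4 and 534, 294, 60.4 and 18.0 in cells, the difference was -1.85 (SE 1.65; limma adjusted p = 0.991), exosome replicate 1 dropped. It was -3.11 as deposited, with the 0 of an unlisted chromosome, and with that library dropped Trp1 was lower, at -1.99.

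Of the other particle genes, Srp9 had a log2 difference of 0.17 and Srp14 one of -0.12 with exosome replicate 1 dropped (-1.50 as deposited), both with a limma adjusted p above 0.05 at 0.974 and 0.993. All 4 genes of signal peptidase, which cuts the signal sequence, lay below the shift, and with exosome replicate 1 dropped they ranged from twr at -0.86 to Spase22-23 at -2.11 (limma adjusted p = 0.993 and 0.991). The 7 genes of oligosaccharyltransferase, which adds sugar chains at the channel, had 5 members below the shift. The highest was Dad1 at -0.33 (limma adjusted p = 0.955), above the shift. The lowest as deposited was Ost48 at -2.86 (limma adjusted p = 0.708), which was at -1.76 with exosome replicate 1 dropped. Ostgamma, on 2L, was then the lowest at -2.64 (limma adjusted p = 0.991).

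By percentile, 6 of the 20 genes had every exosome value below every cell value, and none the reverse. They were named after their values were seen. Of 10 genes on 2L, 2R and 3L these were Trp1 (the fly Sec62) and Sec63, which form an auxiliary complex at the channel, and Ostgamma, against a background of 2.34%. Of the 10 others, without exosome replicate 1, they were l(1)G0320, Spase22-23 and Ost48, against 3.32%. Trp1 was at percentiles of 36.6, 70.9, 69.9 and 52.7 in exosomes, against 76.1, 85.2, 92.3 and 77.1 in the cells. Sec63 was at 54.3, 79.4, 73.4 and 57.0 in exosomes, against 81.6, 82.9, 86.5 and 83.2 in the cells. None passed adjustment over all genes ranked (exact permutation, lowest adjusted p = 0.638). Ostgamma was at 0 in exosome replicate 2, where Ost48, Sec63 and l(1)G0320 rested on about 3.99, 4.98 and 5.56 fragments. Spase22-23 rested on about 0.672 fragments there and on 2.10 in exosome replicate 3. The background shares are not matched for level, and the lists were chosen with earlier results of these data known. The count of 6 is therefore a description only.

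**Figure D5:**
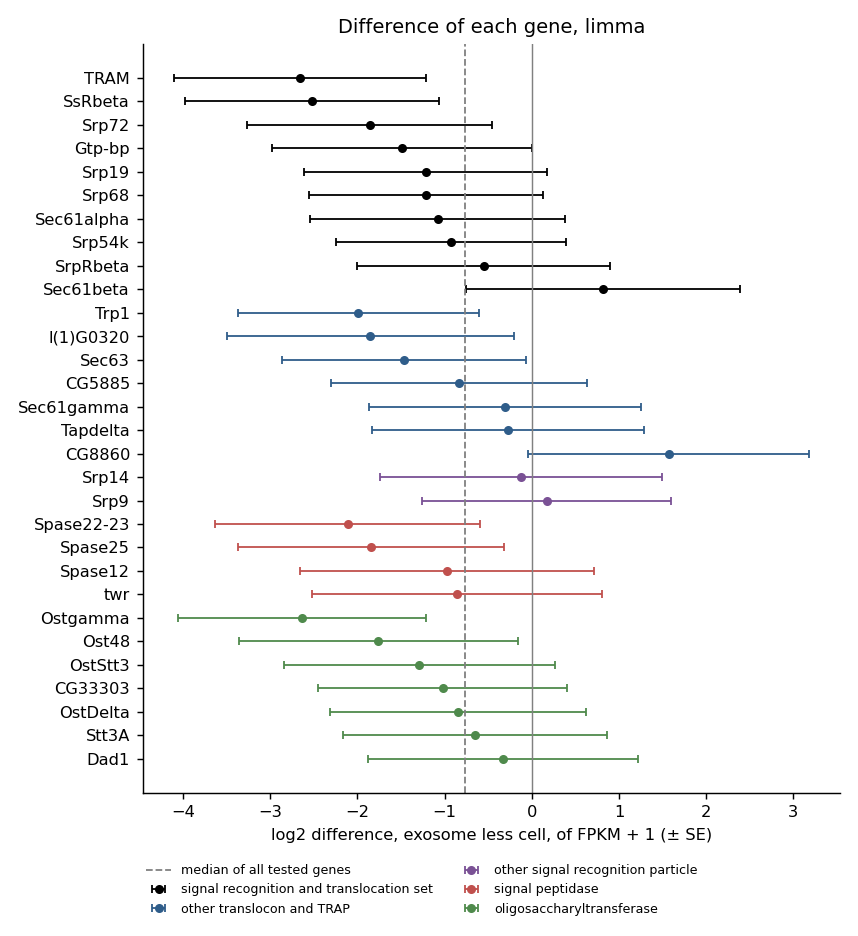
Log2 difference of FPKM + 1, exosome less cell (x axis, ± SE, limma), for the 10 genes (black) and 20 further genes of the pathway (colours), with exosome replicate 1 dropped where it lists no gene. The dashed line is the median of all tested genes at -0.77, and 8 of the 10 genes lie to its left.

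Among tested genes outside the set, the profiles most like the mean of the 10 genes over the 8 libraries were those of TORIP, Icmt and CG4822. Each library's mean was subtracted, and Pearson's r was 0.986, 0.959 and 0.957. TORIP had 9.64, 0, 1.84 and 3.76 FPKM across exosome replicates 1 to 4, against 60.4, 26.0, 2.14 and 0.643 in the cells. All of these share the same libraries and scales, and the zeros of exosome replicate 1 enter the mean of the set. TORIP, Icmt and CG4822 were each at 0 in the shallow exosome replicate 2, as were 6 of the 10 genes. Each was highest in cell replicate 1.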

How the data were processed

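Polyadenylated RNA of S2 exosomes and S2 cells was sequenced in 4 libraries each, with RNA from a column kit and a directional library kit, per the labels' protocols. The deposited values were taken as FPKM made by the authors, since they are not whole numbers and their sums differ. TopHat2, Cufflinks, DESeq2 and the build dm3 are named, without roles, per the submitters' processing notes. Nothing used here states whether strand was used.

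The 21081 transcripts were summed by CG identifier. Names, chromosomes and transcript lengths came from Release 6 tables (all 30 listed genes matched), and no coordinates are given because the builds differ. The planned test for normalized values was used: limma 3.58.1 with a trend on log2(FPKM + 1), genes with FPKM above 1 in at least 4 libraries, Benjamini-Hochberg adjustment over all tested genes at 0.05, no block. The script was tested on simulated data. Percentiles were compared by two-sided exact permutation (scipy 1.17.1), whose smallest p is 0.0286 for 4 against 4. Fragments were estimated from the spacing of low values in genes with 1 transcript, of which 73.0% to 85.7% lay within 0.15 of a whole number in the 6 libraries used; evenly spread values would give 30%, and the spacing was fitted to the same values. A 0 was taken to allow 3 fragments.

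The text names all 10 genes, the highest and lowest of each further list by the log2 difference as deposited, the 3 most alike genes, and others where said. Members and lists were chosen with earlier results of these data known. Dropping exosome replicate 1 by chromosome, ranking within 2L, 2R and 3L, ratios to Sec61beta and leaving out exosome replicates 1 and 2 were chosen after seeing the data. Further alternatives were another pseudocount, filters, scalings, a replicate block and leaving out libraries. The transposon table was not used.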

Additional observations from a re-analysis of the deposited data

Results flagged for a closer look

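Of 40 groups of 4 values checked for a value far from the rest (each of the 10 genes in both groups, by level and by percentile), 1 stood out, where chance gives about 1 in 20. TRAM was at the percentile of 93.1 in cell replicate 1, ranked among all tested genes, and at 67.1 to 70.2 in the other 3 cell libraries. Its level, 208 FPKM, was also the highest of the cells, but cell replicate 1 had the highest cell FPKM for each of the 10 genes.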

How the results depend on the processing

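Under all 19 alternative fits limma called 0 of the 10 genes and 0 genes in all; at an unadjusted p under 0.05 the main fit had 5 genes higher and 271 lower, quantile normalization 206 and 156, the replicate block 5 and 163, and the fit without cell replicate 4 2 and 1213. The number of the 10 genes below the shift, 7, was 4 with the filter at FPKM 10, where 6 were tested. Leaving out 1 library at a time it ran from 5 to 9. The median of the 10 genes less the shift then lay between -0.79 (exosome replicate 1 left out) and 0.075 (cell replicate 1 left out). The shift itself, -1.01, was -1.69 with a pseudocount of 0.1 and 0.11 with quantile normalization, against which the median of the 10 genes was -0.87. Some differences near 0 changed sign, none of them called. On the log2 scale Srp54k was at 0.25 with quantile normalization and 0.058 with library means subtracted. SrpRbeta was at 0.43 with library means subtracted. That subtraction moves all genes alike, and both genes already lay above the shift of -1.01 as deposited. Leaving out 1 library, SrpRbeta ran from -1.48 to 0.37 (0.070 without exosome replicate 3, 0.37 without cell replicate 1) and Sec61alpha from -1.95 to 0.071 (without cell replicate 1), and Sec61beta at -0.32 without exosome replicates 1 and 2. In percentile points Srp54k was at -4.42 with no filter and -1.60 among genes of 2L, 2R and 3L, and ran from -4.47 to 14.5 leaving out 1 library (-3.53 without exosome replicate 1). Srp68 ran from -14.1 to 5.60 (0.537 without cell replicate 1) and was at 0.290 without exosome replicates 1 and 2. Sec61alpha ran from -10.4 to 0.676 (without exosome replicate 4). The cause of the other changes was not tested. In their deviations from the group mean, exosome replicates 1, 2 and 3 each correlated best with the cell library of the same number (0.233, 0.191 and 0.452). Exosome replicate 4 did not (-0.0676) and was closest to cell replicate 2 (0.413). These correlations ran over all tested genes, so the zeros of exosome replicate 1 on its unlisted chromosomes enter them. The main fit did not pair libraries by number, and the replicate block changed no call. For Srp72, Srp68, Srp54k, SsRbeta and Srp19 the 0 of exosome replicate 2 allows levels above those of exosome replicates 3 and 4. A difference from those exosome libraries was not detectable at its depth. For each of these genes the highest FPKM that the 0 allows lay below cell replicates 1 and 2 and above cell replicates 3 and 4, on unequal library scales.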
